A study of Mus musculus with 50 samples.

Results

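Collagen chain genes were taken as every gene of the table whose symbol reads Col, a number, the letter a and a number to its end, from Col1a1 to Col28a1. This found 44 of 56691 genes: 11 fibrillar chains, 6 of the type IV collagen of basement membranes, 3 network chains, 9 FACIT chains (fibril-associated collagens with an interrupted helix), 6 of type VI (beaded filaments), 1 of type VII (anchoring fibrils), 4 transmembrane chains, 2 multiplexins and 2 others. Their RNA was measured by poly(A) sequencing in 50 colon libraries of BALB/c mice, labelled as 10 replicates in each of 5 groups and each read here as 1 mouse. One group is labelled sham. The other 40 mice received TNBS (trinitrobenzene sulfonic acid, a hapten that provokes colitis) and were given vehicle or A1007 at 10, 30 or 90 mpk, the unit as the labels write it. The labels state no age or sex. The series text presents A1007 as a compound that activates AhR, the aryl hydrocarbon receptor, a regulator of genes that small molecules can bind. The series text places the tissue in the distal colon, and the labels place all mice in 1 batch.

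Collagens are secreted matrix proteins whose chains wind around each other into a stiff helix. Fibrillar collagens pack side by side into the fibrils that bear tension in the submucosa, and in the intestine they are the main product of fibroblasts in scar tissue. Type IV collagen forms the sheet beneath epithelium and around vessels and muscle cells, network collagens form lattices, and FACIT collagens sit on the surface of fibrils. In RNA of whole colon, fewer cells of a type and less RNA per cell cannot be told apart.

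Library totals ran from 14373337 to 20446967 counts, so the abundant chains were counted deeply and the rare ones were not. Levels are in FPKM, the authors' deposited measure of fragments per exon kilobase, adjusted for library size. Averaged over the 50 mice, 12 chains lay at or above 10 FPKM, 24 at or above 1 FPKM and 35 at or above 0.1 FPKM. The 8 colon epithelium markers were found in the libraries, with summed levels from 2731 to 4481 FPKM over all mice. Vehicle mouse 6 also held RNA of the pancreas, with 43009 FPKM summed over 9 acinar genes against a median of 2.13 FPKM in the vehicle group. Lower acinar sums were found in 10 mpk mouse 7 (574 FPKM), 30 mpk mouse 2 (2529 FPKM) and 90 mpk mouse 2 (352 FPKM). These were the highest of their groups, and no sham mouse passed 6.34 FPKM. In mouse 6 of the 10 mpk group and mouse 1 of the 30 mpk group Xist was at or below 0.1 FPKM, against at least 7.86 FPKM in the 48 other mice, and no Y-linked gene of those looked at passed 0.08 FPKM in any mouse. Counts of called chains without vehicle mouse 6 and without the pair of mice low in Xist are given beside the first result.

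Of the 44 chains, 39 passed the count filter and were tested with edgeR among 17928 genes, and a chain was called at an adjusted p under 0.05. The untested chains were Col2a1 (fibrillar), Col10a1 (network), Col9a1 and Col19a1 (FACIT) and Col26a1, none of which passed 0.32 FPKM in any mouse. Collagen RNA was higher in TNBS vehicle mice than in sham mice, and lower at 30 and 90 mpk of A1007 than in vehicle mice. In vehicle mice 24 of the 39 tested chains were higher than in sham and 3 were lower, where 18.2% of all tested genes were higher and 13.5% lower. At 30 mpk 17 chains were lower than in vehicle mice and 2 were higher, where 17.9% of all genes were lower and 13.5% higher. At 90 mpk 16 chains were lower and 3 higher, where 11.1% of all genes were lower and 7.12% higher. At 10 mpk 3 chains were higher than in vehicle mice and none lower, where 2.83% of all genes were higher and 2.91% lower; at an unadjusted p under 0.05 edgeR had 5 lower, and DESeq2 called none lower. Another scaling, quantile normalization, turned the balance of all genes in vehicle against sham from 3269 higher and 2412 lower to 2379 and 3534, and at 30 mpk against vehicle from 2417 and 3208 to 3206 and 2406. It gave 19 chains higher and 5 lower in vehicle against sham, and at 30 mpk 2 higher and 16 lower than in vehicle. The median log2 fold change of the 39 chains was 0.86 for vehicle against sham, 0.02 at 10 mpk, -0.54 at 30 mpk and -0.28 at 90 mpk against vehicle, while the median over all genes was 0.02, 0.00, -0.02 and -0.01. Leaving out the pair of mice low in Xist gave 3, 19 and 19 called chains at 10, 30 and 90 mpk against vehicle. Without vehicle mouse 6 the counts were 24 higher and 3 lower in vehicle against sham, 2 higher and 17 lower at 30 mpk and 3 higher and 17 lower at 90 mpk against vehicle. At 10 mpk they were 2 higher and 1 lower without that mouse, as Col27a1 lost its call and Col12a1 was called lower.

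**Figure D1:**
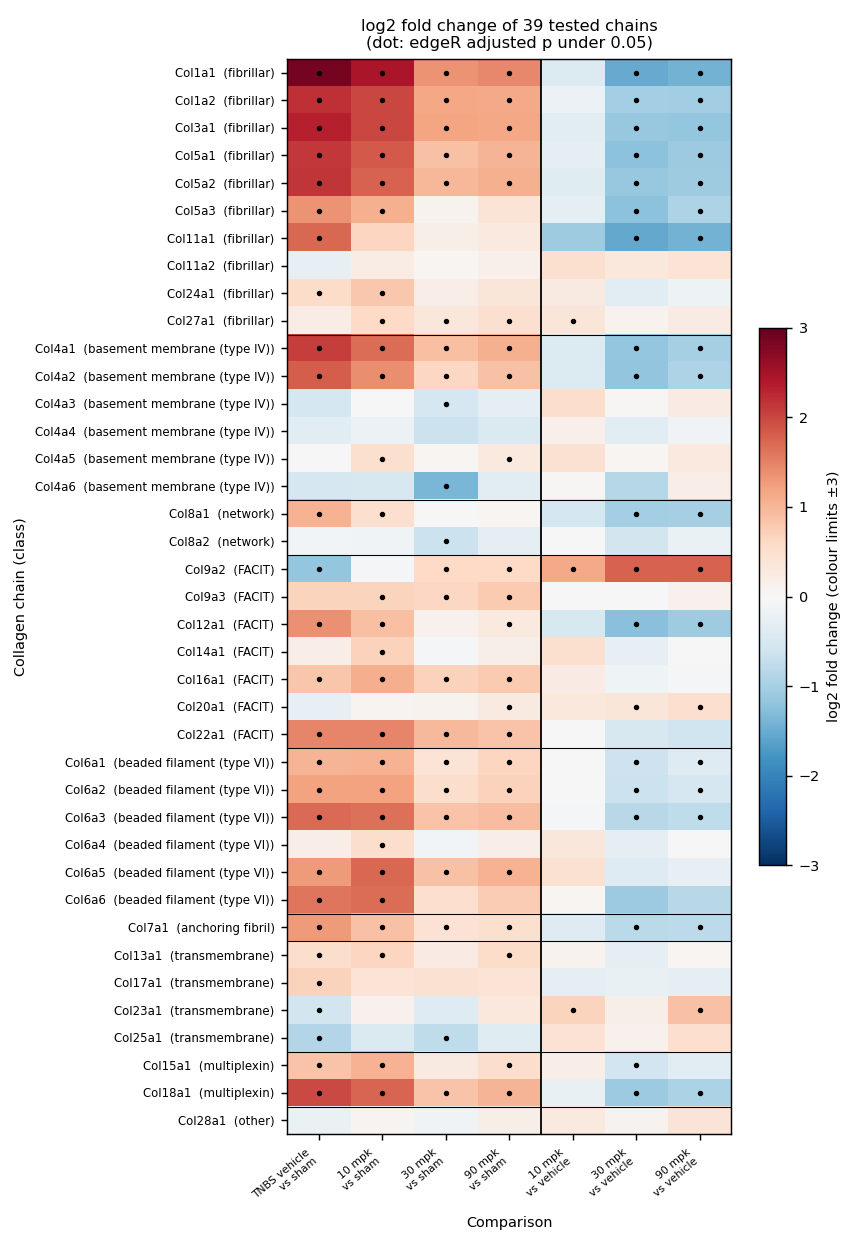
Log2 fold changes of the 39 tested chains (rows, grouped by class) in 7 comparisons (columns), on a colour scale with limits of -3 and 3 and with a dot where the edgeR adjusted p was under 0.05. The fibrillar chains from Col1a1 to Col5a2 are red in all 4 comparisons with sham and blue at 30 and 90 mpk against vehicle, and Col9a2 is blue in vehicle against sham and red in the 3 comparisons with vehicle.

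The fibrillar class held the largest rises. Type I collagen is a heteropolymer of the chains of Col1a1 and Col1a2, and type III, encoded by Col3a1, forms thinner fibrils together with it. Col1a1 (GRCm39, chr11:94827050-94843868) ran from 13.7 to 25.2 FPKM (median 20.1) in sham mice and from 69.7 to 261 FPKM (median 114) in vehicle mice. It ran from 63.6 to 286 (median 76.2) at 10 mpk, from 27.4 to 82.0 (median 44.6) at 30 mpk and from 26.6 to 93.1 (median 57.3) at 90 mpk. Every TNBS mouse of every group lay above every sham mouse, and the 30 and 90 mpk ranges overlapped the lower part of the vehicle range. The mean rose from 19.3 ± 4.08 FPKM in sham to 137 ± 57.4 FPKM in vehicle mice (SD, n = 10; log2 fold change 2.86, SE 0.23, adjusted p = 2.8e-08 by edgeR), the largest rise among the chains. It was -1.5 at 30 mpk (SE 0.27, adjusted p = 0.000105) and -1.42 (SE 0.27, adjusted p = 0.000309) at 90 mpk on the log2 scale relative to vehicle.

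Col3a1 (chr1:45350698-45388866) was the most abundant chain in every group. It ran from 36.7 to 66.2 FPKM (median 52.4) in sham, 169.8 to 430.1 (median 208) in vehicle, 131 to 462 (median 178) at 10 mpk, 75.8 to 206 (median 108) at 30 mpk and 69.7 to 157 (median 126) at 90 mpk. All 10 mice at 90 mpk lay below all 10 vehicle mice, while at 30 mpk 1 or more mice overlapped the vehicle range. The log2 fold change was 2.34 (SE 0.18, adjusted p = 2.16e-08) in vehicle against sham, -1.14 (SE 0.21, adjusted p = 0.000149) at 30 mpk and -1.16 (SE 0.21, adjusted p = 0.000191) at 90 mpk against vehicle. Col1a2, the partner chain of Col1a1, ran from 15.2 to 24.7 FPKM (median 20.4) in sham, 60.5 to 154 (median 78.5) in vehicle, 53.9 to 180.2 (median 70.6) at 10 mpk, 30.9 to 72.4 (median 42.7) at 30 mpk and 25.6 to 68.1 (median 48.3) at 90 mpk. Its rise in vehicle mice was 2.19 (SE 0.17, adjusted p = 2.1e-08), and relative to vehicle it fell by 1.02 (adjusted p = 0.000352) and by 1.04 (adjusted p = 0.000421) at 30 and 90 mpk.

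Type V collagen starts fibrils and limits their width, and its chains followed type I. Col5a1 averaged 6.13 ± 0.896 FPKM in sham, 26.4 ± 8.15 in vehicle, 22 ± 10.3 at 10 mpk, 11.1 ± 2.79 at 30 mpk and 12.8 ± 3.40 at 90 mpk. Col5a2, which lies tail to tail with Col3a1 at a distance of 24614 bases, averaged 6.90 ± 0.965, 30.0 ± 8.52, 23.7 ± 8.86, 13.5 ± 3.90 and 14.8 ± 3.59 FPKM in the same order. The ratio of Col5a1 to Col5a2 within a mouse had a median between 0.835 and 0.918 in the 5 groups, with ranges that overlapped between all of them. Col5a3, another type V chain, rose by 1.35 in vehicle mice (adjusted p = 0.000785), and its log2 fold change against sham was 0.10 at 30 mpk (95% interval -0.38 to 0.58).

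The remaining fibrillar chains were rare in this tissue, apart from Col27a1 at a mean of 2.41 FPKM over the 50 mice. Col11a1, a minor fibril component best known from cartilage, ran from 0.08 to 0.24 FPKM (median 0.125) in sham, 0.06 to 1.56 (median 0.225) in vehicle, 0.05 to 0.5 (median 0.22) at 10 mpk, 0.08 to 0.22 (median 0.155) at 30 mpk and 0.08 to 0.41 (median 0.145) at 90 mpk. It had the lowest log2 fold change of the chains called lower at 30 mpk, -1.53 (SE 0.43, adjusted p = 0.00725), and at 90 mpk, -1.43 (SE 0.43, adjusted p = 0.017). The vehicle range covered the ranges of the other groups except for the lowest 10 mpk mouse. These calls did not hold throughout. The call at 30 mpk was lost with group weights, after quantile normalization and by rank sums (adjusted p from 0.0915 to 0.182). The call at 90 mpk was lost with group weights, with only the 2 groups fitted, after quantile normalization, by rank sums and with the replicate block (adjusted p from 0.0533 to 0.193). It was also lost without vehicle mouse 9 (-0.83, adjusted p = 0.116). The rise in vehicle mice, 1.73 (SE 0.48, adjusted p = 0.00942), was lost as a call after quantile normalization and with the replicate block (adjusted p from 0.0755 to 0.133). Col24a1 rose by 0.54 (adjusted p = 0.0312). The call of Col24a1 was lost with any 1 of 6 mice left out (adjusted p up to 0.064) and with group weights, without a filter, after quantile normalization and with the replicate block (adjusted p from 0.0565 to 0.176). Col11a2 was not called in any comparison. Col27a1 was higher at 10 mpk than in vehicle mice, 0.37 (SE 0.11, adjusted p = 0.0396). That call was lost with any 1 of 12 mice left out (adjusted p up to 0.0911) and with group weights, with library totals, without a filter, with only the 2 groups fitted, after quantile normalization, by rank sums and with the replicate block (adjusted p from 0.0591 to 0.217). It was higher than in sham at each dose, by 0.60, 0.33 and 0.48. Of the 10 tested fibrillar chains 8 were higher in vehicle than in sham (median log2 fold change 1.92), and 7 were lower at both 30 mpk (median -1.14) and 90 mpk (median -1.05) than in vehicle.

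**Figure D2:**
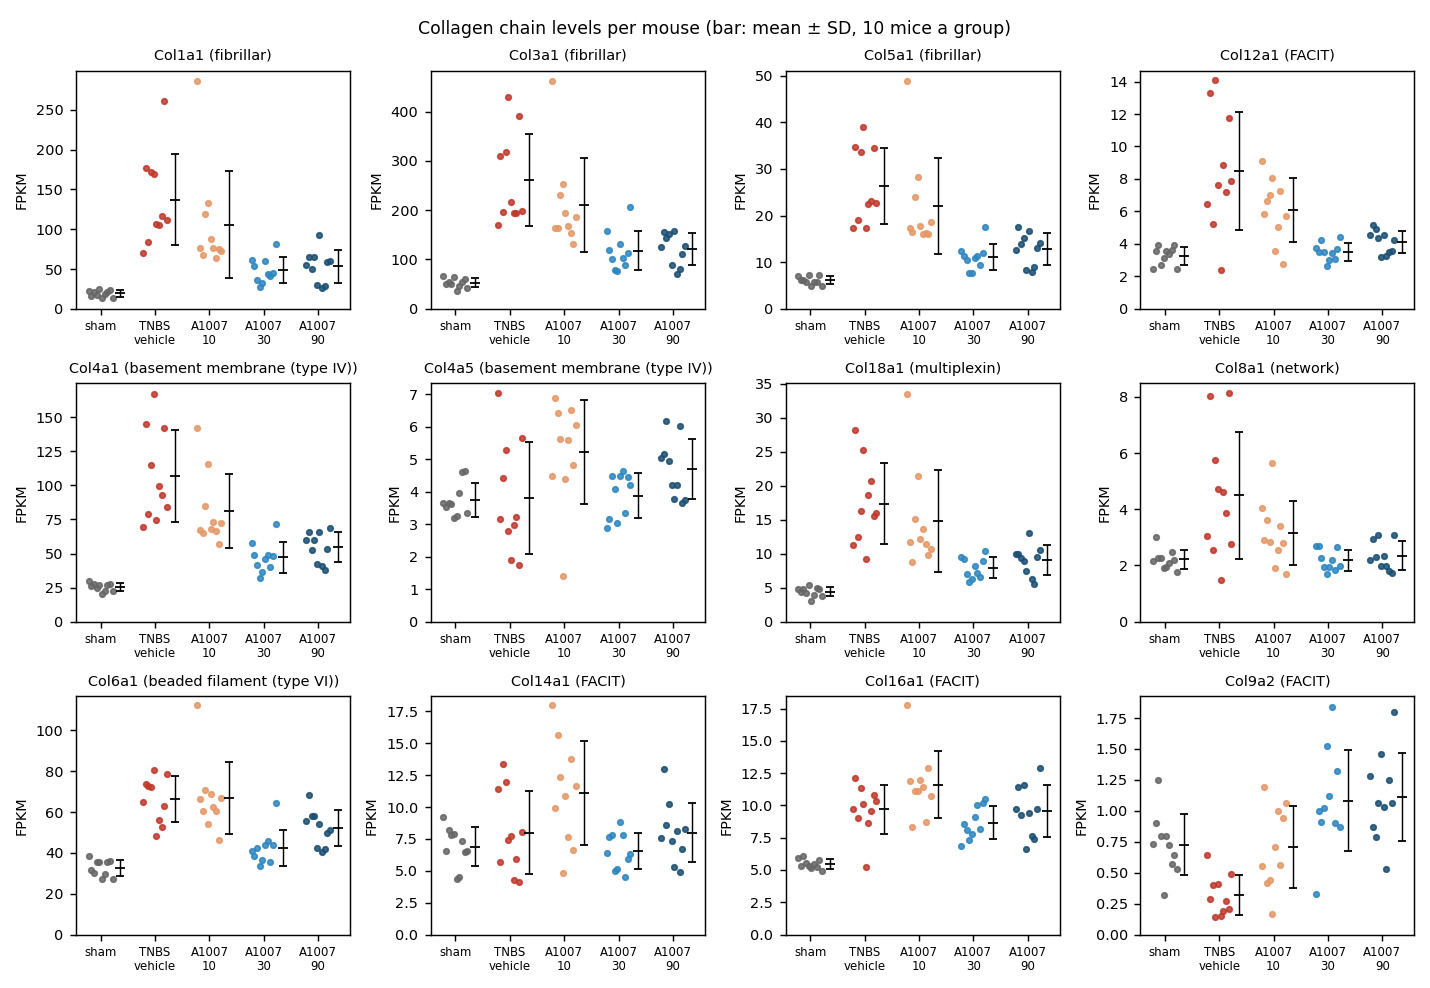
FPKM of 12 chains in each mouse (points) by group (x axis), with the mean and SD of 10 mice as a bar beside the points; each panel has its own y axis from 0. In the panel of Col1a1 the 10 sham mice lie at or below 25.2 FPKM and no TNBS mouse lies below 26.6 FPKM, and 1 mouse at 10 mpk stands at 286 FPKM.

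Type IV collagen split by gene pair. The 6 chains lie as 3 pairs head to head in the genome, and the chains of Col4a1 and Col4a2 assemble with each other in nearly all basement membranes. Col4a1 (GRCm39, chr8:11248423-11362826, minus strand) and Col4a2 (chr8:11362805-11499287, plus strand) share their first 22 bases in the deposited coordinates, so their promoters face away from each other out of 1 stretch of DNA. Their RefSeq promoter windows (GRCm38.p6, 250 bases before to 50 after the start, each read along its own gene) are shown because both chains rose and fell together. The Col4a1 window is chr8:11312777-11313076 on the minus strand, and the Col4a2 window is chr8:11312555-11312854 on the plus strand. Col1a2, whose window is chr6:4505368-4505667 on the plus strand, is shown as a fibrillar chain that moved with them. Capitals mark CCAAT, the box read by the factor NF-Y, and GCGTG, the core letters of the element read by AhR, on either strand.
Col4a1: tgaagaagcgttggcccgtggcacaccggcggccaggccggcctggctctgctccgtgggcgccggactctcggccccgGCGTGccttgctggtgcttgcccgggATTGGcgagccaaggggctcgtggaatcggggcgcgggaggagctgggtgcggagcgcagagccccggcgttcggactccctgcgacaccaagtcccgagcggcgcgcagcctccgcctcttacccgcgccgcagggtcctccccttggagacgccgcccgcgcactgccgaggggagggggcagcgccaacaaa
Col4a2: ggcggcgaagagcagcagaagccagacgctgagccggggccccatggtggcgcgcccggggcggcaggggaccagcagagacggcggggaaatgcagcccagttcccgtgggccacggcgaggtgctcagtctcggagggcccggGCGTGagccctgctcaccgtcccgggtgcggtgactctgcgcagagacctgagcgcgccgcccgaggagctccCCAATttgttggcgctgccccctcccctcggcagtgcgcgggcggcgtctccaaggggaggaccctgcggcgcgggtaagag
Col1a2: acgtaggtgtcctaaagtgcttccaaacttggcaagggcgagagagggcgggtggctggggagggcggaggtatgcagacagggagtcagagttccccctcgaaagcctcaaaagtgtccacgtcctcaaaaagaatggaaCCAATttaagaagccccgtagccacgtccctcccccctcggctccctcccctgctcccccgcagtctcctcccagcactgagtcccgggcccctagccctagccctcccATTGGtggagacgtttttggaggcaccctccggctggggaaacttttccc
The starts lay 21 bases apart and the pair of windows shared 78 bases. Windows were found for 35 of the 44 chains, 38 windows in all. CCAAT was in 13 of them (34.2%) against 37.4% of 32851 windows of all genes, GCGTG in 10 (26.3%) against 32.4%, TATAAA in 5 (13.2%) against 13.6% and GGGCGG, the GC box, in 23 (60.5%) against 35.7%, each searched on both strands. A match describes letters and not a bound site.

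Col4a1 ran from 20.2 to 30.0 FPKM (median 26.4) in sham, 69.2 to 167 (median 96.0) in vehicle, 57.2 to 142 (median 70.4) at 10 mpk, 32.3 to 72 (median 47.3) at 30 mpk and 38.2 to 68.8 (median 56.5) at 90 mpk. Every TNBS mouse lay above every sham mouse, and every 90 mpk mouse lay below every vehicle mouse. Its log2 fold change was 2.08 (SE 0.15, adjusted p = 1.31e-08) in vehicle against sham, -1.16 (SE 0.17, adjusted p = 8.61e-06) at 30 mpk and -1.0 (SE 0.17, adjusted p = 7.65e-05) at 90 mpk against vehicle. Col4a2 ran from 13.9 to 20.1 FPKM (median 17.9) in sham, 43.3 to 97.6 (median 57.0) in vehicle, 27.2 to 82.1 (median 39.7) at 10 mpk, 18.0 to 39 (median 26.2) at 30 mpk and 23.8 to 41.0 (median 34.7) at 90 mpk. The 30 mpk and 90 mpk mice were all below the vehicle mice, and the 30 mpk range overlapped that of sham. Col4a2 rose by 1.82 in vehicle mice (adjusted p = 1.31e-08) and fell by 1.18 (adjusted p = 5.94e-06) and 0.93 (adjusted p = 0.000137) at 30 and 90 mpk. The ratio of Col4a1 to Col4a2 ran from 1.40 to 1.56 (median 1.43) in sham mice and from 1.60 to 2.03 (median 1.71) in vehicle mice, without overlap. Under A1007 this ratio stayed above every sham mouse. It ran from 1.59 to 2.10 at 10 mpk, 1.64 to 1.89 at 30 mpk and 1.58 to 1.77 at 90 mpk.

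The other pairs did not follow. Col4a5, whose chain replaces part of the common network in the kidney and in smooth muscle, ran from 3.20 to 4.65 FPKM (median 3.62) in sham, 1.74 to 7.05 (median 3.19) in vehicle, 1.42 to 6.90 (median 5.6) at 10 mpk, 2.87 to 4.63 (median 4.14) at 30 mpk and 3.66 to 6.17 (median 4.59) at 90 mpk. All 5 ranges overlapped. Its log2 fold change in vehicle against sham was 0.02 with a 95% interval of -0.37 to 0.41, an interval that lies wholly below that of Col4a1 (1.76 to 2.40). Col4a5 was called higher than sham at 10 mpk, by 0.48 (adjusted p = 0.0392, lost with any 1 of 15 mice left out (adjusted p up to 0.067)), and at 90 mpk, by 0.30 (adjusted p = 0.0183). The call at 10 mpk was also lost with group weights, without a filter, after quantile normalization and with the replicate block (adjusted p from 0.0805 to 0.214). That at 90 mpk was lost with all 50 mice in 1 fit (adjusted p = 0.215). Col4a3, Col4a4 and Col4a6 averaged at most 0.129 FPKM in any group, and Col4a4 was not called in any comparison. Of these, Col4a6 ran from 0.04 to 0.15 FPKM (median 0.075) in sham and 0.01 to 0.07 (median 0.025) at 30 mpk, and its log2 fold change of -1.37 (SE 0.30, adjusted p = 0.00041) was the lowest against sham at that dose. Col4a3 was called lower at 30 mpk as well, -0.50 (SE 0.19, adjusted p = 0.0303). That call was lost with any 1 of 4 mice left out (adjusted p up to 0.0676) and with all 50 mice in 1 fit, with group weights, without a filter and with the replicate block (adjusted p from 0.0578 to 0.0927). A gene that overlaps Col4a3 held 51.9% as many counts, and the strand setting of the counting is not given in the sources used here. Of the 6 type IV chains 2 were higher in vehicle than in sham (median log2 fold change -0.15), and the same 2 were lower at 30 and 90 mpk than in vehicle.

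The network class held 2 tested chains. Col8a1, a chain of a lattice known from beneath the endothelium of the cornea, ran from 1.78 to 3.01 FPKM (median 2.19) in sham, 1.49 to 8.14 (median 4.25) in vehicle, 1.71 to 5.63 (median 2.88) at 10 mpk, 1.71 to 2.69 (median 2.08) at 30 mpk and 1.73 to 3.09 (median 2.26) at 90 mpk. The vehicle range covered the whole sham range and that at 30 mpk. Its lower end was mouse 6, the one with the most pancreatic RNA, and the next lowest vehicle mouse had 2.56 FPKM. Col8a1 rose by 1.04 (SE 0.24, adjusted p = 0.00275) in vehicle mice and was lower than vehicle at 30 mpk, -1.03 (SE 0.22, adjusted p = 0.00059), and at 90 mpk, -0.98 (SE 0.22, adjusted p = 0.00144), where the call was lost by rank sums (adjusted p = 0.0537). Against sham the log2 fold change was 0.00 at 30 mpk (95% interval -0.20 to 0.20) and 0.05 at 90 mpk (-0.17 to 0.28). Its partner Col8a2 was called in 1 of the comparisons with sham or vehicle, lower at 30 mpk than in sham, -0.65 (SE 0.15, adjusted p = 0.000808).

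FACIT chains went separate ways. Col16a1, a fibril-associated chain made by fibroblasts and smooth muscle cells, ran from 4.90 to 6.10 FPKM (median 5.39) in sham, 5.20 to 12.2 (median 9.95) in vehicle, 8.35 to 17.8 (median 11.3) at 10 mpk, 6.83 to 10.5 (median 8.38) at 30 mpk and 6.66 to 12.9 (median 9.57) at 90 mpk. All treated mice lay above all sham mice, and 1 vehicle mouse, the one with the most pancreatic RNA, lay within the sham range. Col16a1 rose by 0.83 (SE 0.10, adjusted p = 2.56e-06) in vehicle mice, and its log2 fold change against vehicle was -0.13 at 30 mpk (95% interval -0.38 to 0.11) and -0.05 at 90 mpk (-0.30 to 0.20). Those intervals lie wholly above the ones of Col1a1 at the same doses, -2.05 to -0.95 and -1.97 to -0.87.

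Col12a1 and Col14a1 encode related chains that bind the surface of type I fibrils. Col12a1 ran from 2.46 to 3.94 FPKM (median 3.44) in sham, 2.41 to 14.1 (median 7.74) in vehicle, 2.75 to 9.08 (median 6.25) at 10 mpk, 2.66 to 4.45 (median 3.5) at 30 mpk and 3.20 to 5.17 (median 4.29) at 90 mpk. It rose by 1.38 (SE 0.22, adjusted p = 0.000109) in vehicle mice and was the FACIT chain called lower at 30 mpk, -1.24 (SE 0.20, adjusted p = 2.56e-05), and at 90 mpk, -1.07 (SE 0.20, adjusted p = 0.000216). Col14a1 ran from 4.37 to 9.23 FPKM (median 6.97) in sham, 4.11 to 13.4 (median 7.55) in vehicle, 4.84 to 18.0 (median 11.3) at 10 mpk, 4.54 to 8.81 (median 6.36) at 30 mpk and 4.89 to 13.0 (median 7.86) at 90 mpk. It was not called in vehicle against sham (log2 fold change 0.21, SE 0.19, adjusted p = 0.424, 95% interval -0.20 to 0.62), and was higher at 10 mpk than in sham, 0.69 (SE 0.20, adjusted p = 0.0102). The ratio of Col12a1 to Col14a1 within a mouse ran from 0.269 to 0.81 (median 0.486) in sham, 0.313 to 2.87 (median 1.10) in vehicle and 0.343 to 0.708 (median 0.561) at 30 mpk. Some vehicle mice had ratios within the sham range and others lay above it.

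Col9a2 was lower in vehicle mice and higher under A1007, and a few chains named below shared 1 of these directions or both. It encodes a chain of type IX collagen, known from cartilage, and lies at chr4:120896582-120912519 in GRCm39. Col9a2 ran from 0.32 to 1.25 FPKM (median 0.725) in sham, 0.14 to 0.64 (median 0.28) in vehicle, 0.17 to 1.19 (median 0.635) at 10 mpk, 0.33 to 1.84 (median 1.01) at 30 mpk and 0.53 to 1.80 (median 1.06) at 90 mpk. The vehicle mice were the lowest group and the ranges of all groups overlapped. It was lower in vehicle than in sham, -1.16 (SE 0.26, adjusted p = 0.00161), the lowest log2 fold change among the chains. It was higher than in vehicle at 10 mpk, 1.13 (SE 0.29, adjusted p = 0.0179), at 30 mpk, 1.78 (SE 0.29, adjusted p = 2.45e-05), and at 90 mpk, 1.76 (SE 0.29, adjusted p = 5.57e-05). The call at 10 mpk was lost with group weights, with only the 2 groups fitted, after quantile normalization and by rank sums (adjusted p from 0.0739 to 0.264). Against sham it was higher at 30 mpk, 0.60 (SE 0.22, adjusted p = 0.0248). That call was lost without 30 mpk mouse 5 (0.53, adjusted p = 0.051) or 30 mpk mouse 7 (0.49, adjusted p = 0.0594) and with group weights, after quantile normalization and with the replicate block (adjusted p from 0.0508 to 0.0795). It was higher than sham at 90 mpk as well, 0.59 (SE 0.20, adjusted p = 0.0174). The 90 mpk call was lost with all 50 mice in 1 fit and with the replicate block (adjusted p from 0.064 to 0.0823). The other type IX chain that was tested, Col9a3, reached at most 0.59 FPKM in any mouse and was not called against vehicle at any dose. A gene that overlaps Col9a3 on the other strand held 6.64% as many counts.

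Col20a1 ran from 1.33 to 2.27 FPKM (median 1.80) in sham, 1.05 to 2.07 (median 1.56) in vehicle, 1.56 to 2.19 (median 1.81) at 10 mpk, 1.52 to 2.21 (median 2.0) at 30 mpk and 1.88 to 2.55 (median 2.10) at 90 mpk. It was higher than vehicle at 30 mpk, 0.37 (SE 0.10, adjusted p = 0.00471), and at 90 mpk, 0.51 (SE 0.10, adjusted p = 0.000332). A gene that overlaps Col20a1 held 75.5% as many counts, so its values are uncertain. Col22a1, known from tissue junctions of muscle, rose by 1.45 in vehicle mice (adjusted p = 0.000409) at a mean of 0.097 ± 0.0359 against 0.035 ± 0.0184 FPKM. Of the 7 tested FACIT chains 3 were higher and 1 lower in vehicle than in sham (median log2 fold change 0.66), and at both 30 and 90 mpk 1 was lower and 2 were higher than in vehicle.

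Type VI collagen forms beaded filaments around cells, from chains of Col6a1, Col6a2 and a longer chain such as that of Col6a3. Col6a1 ran from 27.1 to 38.3 FPKM (median 33.5) in sham, 48.2 to 80.4 (median 68.6) in vehicle, 46.2 to 112 (median 64.4) at 10 mpk, 33.3 to 64.4 (median 41.5) at 30 mpk and 40.2 to 68.5 (median 52.7) at 90 mpk. Vehicle, 10 mpk and 90 mpk mice all lay above all sham mice, while the 30 mpk range overlapped that of sham. Col6a1 rose by 1.03 (SE 0.09, adjusted p = 9.84e-08) in vehicle mice and was lower than vehicle at 30 mpk, -0.61 (SE 0.12, adjusted p = 0.000253), and at 90 mpk, -0.38 (SE 0.12, adjusted p = 0.0234), where the call was lost after quantile normalization (adjusted p = 0.103). Its neighbour Col6a2 ran from 11 to 16.5 FPKM (median 14.1) in sham, 22.8 to 39.2 (median 32.6) in vehicle, 25.1 to 58.7 (median 29.3) at 10 mpk, 14.4 to 31.3 (median 19.1) at 30 mpk and 16.3 to 30.5 (median 24.6) at 90 mpk. Its log2 fold change was 1.20 in vehicle against sham, -0.65 at 30 mpk and -0.50 at 90 mpk against vehicle, each called.

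Col6a3 ran from 3.83 to 6.36 FPKM (median 5.21) in sham, 7.44 to 21.7 (median 16.8) in vehicle, 11.5 to 30.2 (median 14.1) at 10 mpk, 6.29 to 13.4 (median 8.78) at 30 mpk and 6.41 to 12.4 (median 10.3) at 90 mpk. It rose in vehicle mice by 1.70 (SE 0.14, adjusted p = 3.62e-08), with a 95% interval of 1.41 to 1.99 against 0.84 to 1.21 for Col6a1. The ratio of Col6a3 to Col6a1 had a median of 0.146 in sham and 0.243 in vehicle mice, and of 0.21 and 0.184 at 30 and 90 mpk. Col6a5, an alternative to Col6a3, averaged 1.54 ± 0.347 FPKM in sham, 3.77 ± 1.64 in vehicle, 5.12 ± 2.23 at 10 mpk, 2.82 ± 0.574 at 30 mpk and 3.24 ± 0.756 at 90 mpk. It rose by 1.27 in vehicle mice (adjusted p = 0.000239) and was not called against vehicle at 30 mpk (-0.38, 95% interval -0.83 to 0.08) or 90 mpk (-0.23, -0.69 to 0.22). Col6a6, another such chain, rose by 1.61 (adjusted p = 0.0204) at a mean of 0.091 ± 0.0895 FPKM in vehicle against 0.03 ± 0.0189 FPKM in sham. It had at most 46 counts in any mouse. The call of Col6a6 was lost without vehicle mouse 5 (1.21, adjusted p = 0.0562) and with group weights, after quantile normalization and by rank sums (adjusted p from 0.0577 to 0.165). Col6a4, which completes the family, averaged 1.99 ± 0.231 FPKM in sham and 2.29 ± 0.991 in vehicle and was called in 1 comparison, higher at 10 mpk than in sham, 0.54 (SE 0.14, adjusted p = 0.00724), which was lost after quantile normalization (adjusted p = 0.0622). Of the 6 type VI chains 5 were higher in vehicle than in sham (median log2 fold change 1.24) and 3 were lower at 30 and at 90 mpk than in vehicle (medians -0.63 and -0.44).

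Col7a1, the chain of the anchoring fibrils that tie epithelium to stroma, averaged 0.286 ± 0.0562 FPKM in sham and 0.672 ± 0.237 FPKM in vehicle mice without overlap (log2 fold change 1.27, SE 0.20, adjusted p = 8.39e-05), and was lower than vehicle at 30 mpk, -0.81 (SE 0.21, adjusted p = 0.00312), and 90 mpk, -0.78 (SE 0.20, adjusted p = 0.00635). The multiplexins Col15a1 and Col18a1 encode chains of basement membrane zones, and the end of the Col18a1 protein is the source of endostatin. A gene that overlaps Col18a1 on the other strand held 12.3% as many counts, and the strand setting of the counting is not given. Col18a1 ran from 3.05 to 5.35 FPKM (median 4.55) in sham, 9.29 to 28.1 (median 16.1) in vehicle, 8.84 to 33.5 (median 12.0) at 10 mpk, 5.86 to 10.4 (median 7.66) at 30 mpk and 5.50 to 13.0 (median 9.47) at 90 mpk. Each group of TNBS mice lay wholly above sham, and the log2 fold change was 1.98 (SE 0.16, adjusted p = 3.04e-08) in vehicle against sham, -1.10 (SE 0.20, adjusted p = 8.64e-05) at 30 mpk and -0.96 (SE 0.19, adjusted p = 0.000555) at 90 mpk against vehicle. Col15a1 ran from 4.75 to 10.2 FPKM (median 7.11) in sham, 8.05 to 18.2 (median 13.2) in vehicle, 10.6 to 27.9 (median 15.0) at 10 mpk, 6.55 to 12.0 (median 9.02) at 30 mpk and 8.35 to 13.6 (median 11.4) at 90 mpk. It rose by 0.86 (SE 0.13, adjusted p = 7.2e-05) in vehicle mice and was called lower than vehicle at 30 mpk, -0.57 (SE 0.13, adjusted p = 0.00136), and not at 90 mpk, -0.33 (SE 0.13, adjusted p = 0.0738).

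The transmembrane chains, which span the cell membrane and are shed from it, had no common direction. Col23a1 ran from 1.86 to 5.17 FPKM (median 3.19) in sham, 1.19 to 3.56 (median 1.99) in vehicle, 1.86 to 5.13 (median 3.25) at 10 mpk, 1.18 to 3.33 (median 2.33) at 30 mpk and 3.23 to 5.23 (median 3.88) at 90 mpk. It was lower in vehicle than in sham, -0.55 (SE 0.19, adjusted p = 0.0291). That call was lost without vehicle mouse 2 (-0.52, adjusted p = 0.0548), sham mouse 2 (-0.49, adjusted p = 0.0586) or sham mouse 6 (-0.45, adjusted p = 0.0647) and with group weights, by rank sums and with the replicate block (adjusted p from 0.0679 to 0.13). It was higher than in vehicle at 10 mpk, 0.68 (SE 0.17, adjusted p = 0.016), and at 90 mpk, 0.87 (SE 0.17, adjusted p = 0.000323). The call at 10 mpk was lost with group weights, with only the 2 groups fitted and by rank sums (adjusted p from 0.109 to 0.178). Col25a1 was also lower in vehicle than in sham, -0.87 (SE 0.25, adjusted p = 0.0127). Col13a1, found at cell junctions, and Col17a1, a component of hemidesmosomes, were higher, by 0.52 (adjusted p = 0.0101) and 0.69 (adjusted p = 0.0467). The call of Col13a1 was lost after quantile normalization and by rank sums (adjusted p from 0.0657 to 0.0679). That of Col17a1 was lost with any 1 of 13 mice left out (adjusted p up to 0.0979) and with all 50 mice in 1 fit, with group weights, with library totals, without a filter, after quantile normalization and with the replicate block (adjusted p from 0.0523 to 0.108). Col28a1 ran from 1.74 to 3.55 FPKM (median 2.40) in sham, 0.62 to 2.99 (median 2.27) in vehicle, 1.41 to 3.28 (median 2.75) at 10 mpk, 1.57 to 2.91 (median 2.30) at 30 mpk and 1.60 to 3.34 (median 3.08) at 90 mpk, and was not called in any comparison.

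The makeup of the collagen RNA shifted with these changes. Summed over the 44 chains, FPKM ran from 198 to 296 (median 257) in sham, 656 to 1299.6 (median 783) in vehicle, 568 to 1603 (median 666) at 10 mpk, 315 to 691 (median 442) at 30 mpk and 332 to 624 (median 529) at 90 mpk. All TNBS mice lay above all sham mice, and all 90 mpk mice lay below all vehicle mice. Fibrillar chains made up 43.5 ± 2.13% of the collagen FPKM in sham (mean and SD, n = 10), 59.7 ± 4.85% in vehicle, 56.7 ± 3.84% at 10 mpk, 53.8 ± 3.76% at 30 mpk and 50.8 ± 4.0% at 90 mpk. The lowest vehicle share, 53.2%, was above the highest sham share, 46.9%.

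The type IV share did not separate the groups, while every other class except the fibrillar had a lower mean share in vehicle than in sham mice. Type IV made up 18.7 ± 0.757% in sham, 18.7 ± 1.71% in vehicle, 17.3 ± 1.91% at 10 mpk, 17.7 ± 0.907% at 30 mpk and 18.9 ± 1.5% at 90 mpk, with ranges that overlapped between all groups. Type VI went from 21.8 ± 1.11% in sham to 13.6 ± 3.07% in vehicle, with 16.2 ± 2.37% at 10 mpk, 17.4 ± 1.88% at 30 mpk and 18.5 ± 1.73% at 90 mpk. FACIT chains went from 7.29 ± 0.619% in sham to 3.21 ± 0.826% in vehicle, with 4.27 ± 0.835% at 10 mpk, 5.14 ± 0.881% at 30 mpk and 5.24 ± 0.789% at 90 mpk, and network chains from 1.19 ± 0.176% in sham to 0.55 ± 0.148% in vehicle and 0.631 ± 0.128% at 30 mpk. Transmembrane chains went from 1.765 ± 0.66% in sham to 0.414 ± 0.163% in vehicle, and the other chains from 0.982 ± 0.178% to 0.257 ± 0.109%. Multiplexins went from 4.67 ± 0.506% to 3.48 ± 0.797%, with ranges that overlapped. For FACIT, type VI, network, transmembrane and other chains every vehicle mouse had a lower share than every sham mouse. The type VI, FACIT, network and multiplexin sums themselves were not lower in vehicle mice. FACIT chains summed to 18.4 ± 1.91 FPKM in sham and 28.4 ± 5.94 FPKM in vehicle, and network chains to 2.98 ± 0.39 and 5.21 ± 2.36 FPKM. Type VI chains summed to 55.2 ± 6.68 and 121 ± 20.7 FPKM, and multiplexins to 11.9 ± 2.36 and 30.9 ± 6.5 FPKM. The transmembrane sum had a lower mean in vehicle, 4.32 ± 1.16 FPKM in sham and 3.54 ± 0.858 FPKM in vehicle. So had that of the other chains, 2.47 ± 0.459 and 2.16 ± 0.651 FPKM.

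**Figure D3:**
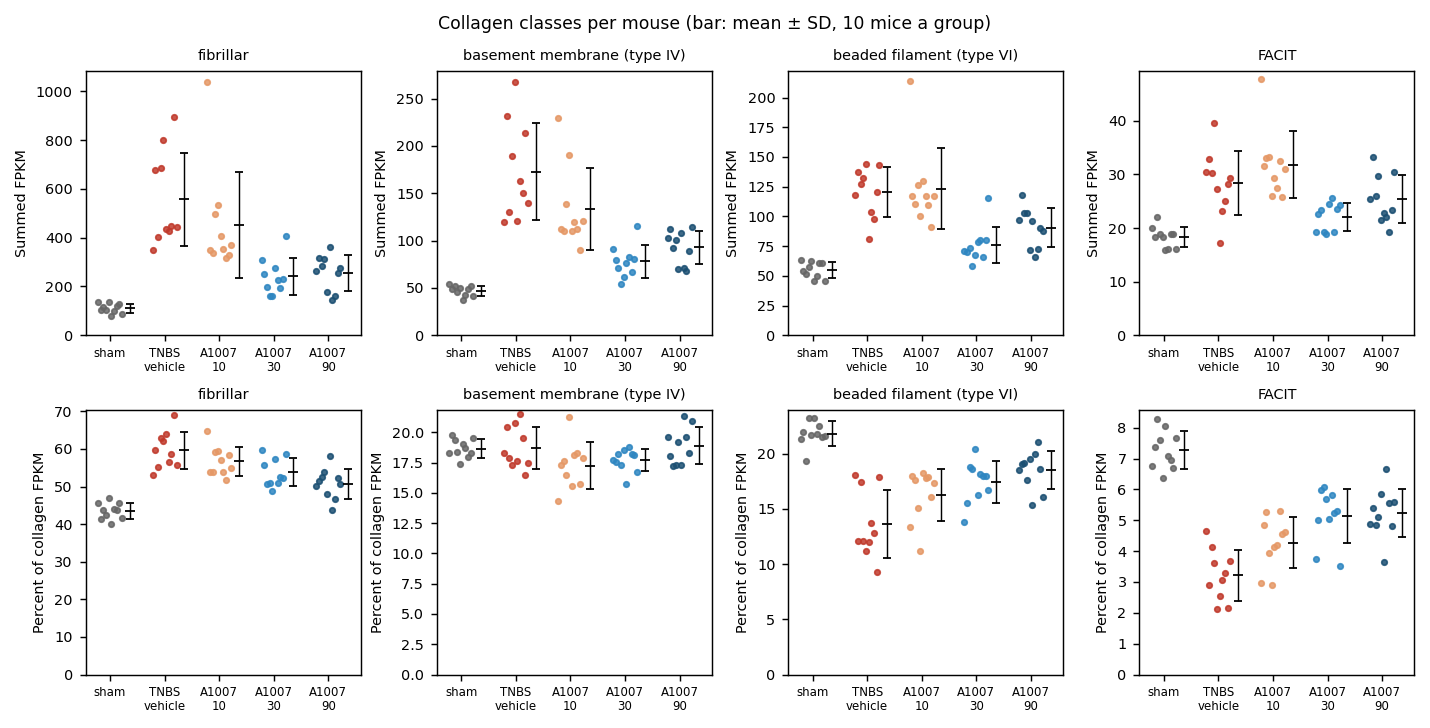
Summed FPKM (top) and percent of all collagen FPKM (bottom) of 4 classes in each mouse (points), with mean and SD of 10 mice as bars. The fibrillar share is at least 53.2% in all vehicle mice and at most 46.9% in sham, while the FACIT share has its lowest mean in vehicle mice.

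Some partner chains rose in unequal measure, while Col5a1 with Col5a2 kept a ratio that overlapped between all groups. The ratio of Col6a1 to Col6a2 also overlapped between groups, but its median was lower in vehicle mice. It ran from 2.16 to 2.51 (median 2.34) in sham and from 1.71 to 2.35 (median 2.11) in vehicle. The ratio of Col1a1 to Col1a2 within a mouse ran from 0.846 to 1.03 (median 0.944) in sham, 1.15 to 1.69 (median 1.52) in vehicle, 0.911 to 1.72 (median 1.17) at 10 mpk, 0.89 to 1.17 (median 1.10) at 30 mpk and 0.935 to 1.37 (median 1.16) at 90 mpk. All vehicle mice exceeded all sham mice, and the 30 mpk range overlapped both. Ratios across types moved too. Col1a1 over Col6a1 ran from 0.477 to 0.72 (median 0.592) in sham, 1.07 to 4.16 (median 2.16) in vehicle, 1.06 to 2.54 (median 1.25) at 10 mpk, 0.824 to 1.49 (median 1.09) at 30 mpk and 0.662 to 1.72 (median 0.975) at 90 mpk. All vehicle, 10 mpk and 30 mpk mice lay above all sham mice in this ratio. Col4a1 over Col4a5 ran from 5.70 to 8.47 (median 6.75) in sham and 9.81 to 81.8 (median 31.1) in vehicle, and from 7.90 to 20.1 (median 11.4) at 30 mpk and 6.33 to 18.5 (median 12.0) at 90 mpk.

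**Figure D4:**
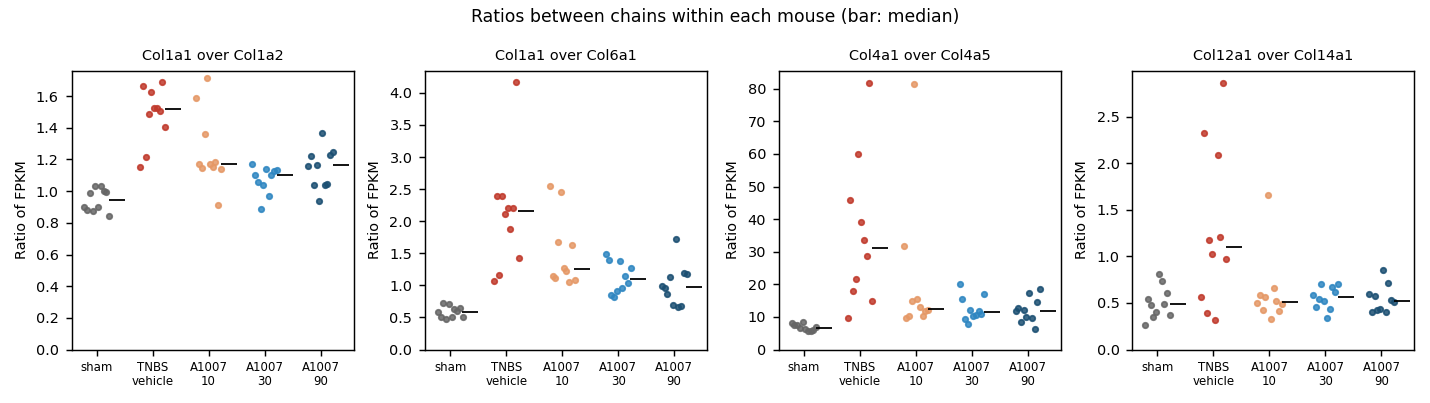
Ratios of FPKM between pairs of chains in each mouse (points) by group, with the group median as a bar; axes start at 0. The 10 sham mice lie close together in the ratio of Col4a1 to Col4a5, up to 8.47, while vehicle mice reach 81.8.

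The doses of A1007 were compared with each other in the fit of the 40 TNBS mice. At 30 mpk 16 chains were lower than at 10 mpk and none was higher, where 1.55% of all genes were lower and 0.469% higher; at an unadjusted p under 0.05 edgeR had 1 chain higher, and DESeq2 called none higher. The 16 were 6 fibrillar chains, Col4a1 and Col4a2, 2 FACIT chains, 4 type VI chains and both multiplexins. Among them Col1a1 had the largest difference, -1.09 (SE 0.27, adjusted p = 0.0246), followed by Col5a1 at -0.96 (SE 0.20, adjusted p = 0.00679) and Col5a3 at -0.96 (SE 0.19, adjusted p = 0.00606). Mouse 1 of the 10 mpk group was the highest of its group for Col1a1, at 286 FPKM. Without it 9 chains were called (Col5a1, Col5a3, Col4a1, Col4a2, Col6a1, Col6a2, Col6a3, Col15a1 and Col18a1), and Col1a1 was -0.79 with adjusted p = 0.082. Without mouse 5 of the 30 mpk group 10 chains were called, and Col1a1 was -1.05 with adjusted p = 0.0549. Col1a1 was also not called without a filter on low counts (adjusted p = 0.0663). The 9 chains named were called with each of the 40 mice left out in turn. Other calls were less firm. That of Col14a1 was lost with any 1 of 25 mice left out (adjusted p up to 0.105). For Col6a5 this held with 11 mice (up to 0.104) and for Col12a1 with 8 (up to 0.0792). Each of these was also lost without a filter, after quantile normalization and by rank sums (adjusted p from 0.062 to 0.145). Rank sums called 11 chains lower in all.

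Between 90 and 30 mpk 1 chain was called, Col23a1, higher at 90 mpk by 0.70 (SE 0.17, adjusted p = 0.0476), where 0.0948% of all genes were higher and 0.273% lower. No chain was lower by edgeR at an unadjusted p under 0.05 either, nor by DESeq2. The call was lost with any 1 of 24 mice left out (adjusted p up to 0.11), without a filter (adjusted p = 0.0832) and without the pair of mice low in Xist. For Col1a1 the log2 difference between 90 and 30 mpk was 0.08 (95% interval -0.45 to 0.62), for Col3a1 -0.02 (-0.44 to 0.41) and for Col4a1 0.15 (-0.18 to 0.49). At 10 mpk against vehicle the called chains were Col27a1, Col9a2 and Col23a1, all higher. Col1a1 was -0.41 there (95% interval -0.95 to 0.13, adjusted p = 0.366) and Col4a1 -0.41 (-0.75 to -0.07, adjusted p = 0.134). Without mouse 1 of the 10 mpk group Col4a1 and Col4a2 were called lower and Col27a1 was no longer called. Without mouse 5 of that group 9 chains were called, 7 higher and 2 lower, and without vehicle mouse 1 5 were called, all higher.

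**Figure D5:**
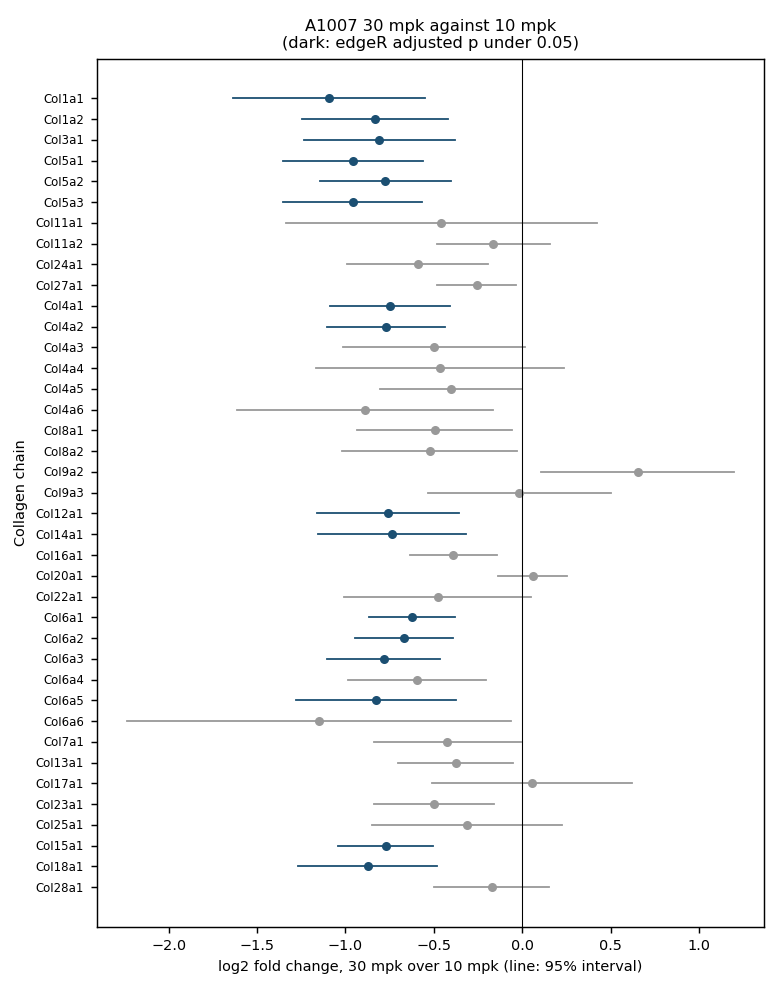
Log2 fold change of the 39 tested chains at 30 mpk over 10 mpk (points) with 95% intervals that are not adjusted for the number of genes (lines); dark marks an edgeR adjusted p under 0.05. The 16 called chains lie between -1.09 and -0.62, and Col9a2 lies to the right of 0 at 0.65.

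Most chains that rose in vehicle mice were still above sham at each dose of A1007, and so were most of all genes that rose. The comparisons of the doses with sham share the sham mice, and those with vehicle share the vehicle mice. At 10 mpk 27 chains were higher than in sham and none lower, where 21.3% of all genes were higher and 14.7% lower. At 30 mpk 18 were higher and 4 lower (30.3% and 28.7% of all genes), and at 90 mpk 23 were higher and none lower (23.4% and 21.9%). At 10 and 90 mpk no chain was lower than in sham at an unadjusted p under 0.05 in edgeR either, or by DESeq2, while quantile normalization gave 1 lower at each of these doses. Of the 24 chains higher in vehicle than in sham, 15 (62.5%) were higher than sham at each dose too, against 52.1% of the 3269 genes higher in vehicle. Of the 24, 16 (66.7%) were lower than vehicle at both 30 and 90 mpk, against 34.6% of those genes. Chains and genes alike were picked here for being high in the vehicle mice that the dose comparisons use again. Of the 16 chains 12 (75.0%) were still higher than sham at both doses, against 36.5% of the 1131 genes that met the same conditions. Relative to sham Col1a1 was 1.35 (SE 0.18, adjusted p = 3.67e-06) at 30 mpk and 1.44 (SE 0.21, adjusted p = 3.8e-05) at 90 mpk. Of the calls against sham, that of Col7a1 at 90 mpk was lost with any 1 of 5 mice left out (adjusted p up to 0.0591) and with all 50 mice in 1 fit, with group weights, after quantile normalization, by rank sums and with the replicate block (adjusted p from 0.0589 to 0.172). Those of Col9a3 were lost with any 1 of 5 mice left out (adjusted p up to 0.0655) at 10 mpk, lost without 30 mpk mouse 10 (0.50, adjusted p = 0.0633) at 30 mpk and lost without 90 mpk mouse 10 (0.60, adjusted p = 0.0521) at 90 mpk. They were also lost without a filter (adjusted p = 0.0733) at 10 mpk, by rank sums and with the replicate block (adjusted p from 0.059 to 0.0707) at 30 mpk and after quantile normalization, by rank sums and with the replicate block (adjusted p from 0.0516 to 0.0741) at 90 mpk. Col5a3, Col11a1 and Col8a1 were lower than vehicle at both doses and not called against sham at either. Col12a1 was called against sham at 90 mpk, 0.30 (SE 0.10, adjusted p = 0.0213), and not at 30 mpk, 0.13 (SE 0.10, adjusted p = 0.276). The 90 mpk call of Col12a1 was lost with all 50 mice in 1 fit, without a filter and by rank sums (adjusted p from 0.0529 to 0.215). In all, 7 chains (29.2%, against 50.9% of the 3269 genes) were higher in vehicle than in sham and not called lower at 30 or 90 mpk: Col24a1, Col16a1, Col22a1, Col6a5, Col6a6, Col13a1 and Col17a1. Lower than sham at 30 mpk were Col4a3, Col4a6, Col8a2 and Col25a1.

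FPKM ranges were compared as well. In 12 chains all 10 vehicle mice were above all 10 sham mice, and the same held in 13 chains at 10 mpk, 9 at 30 mpk and 11 at 90 mpk against sham. Among all tested genes the shares were 2.99%, 2.12%, 5.08% and 1.96%. At 30 mpk Col4a2 lay wholly below vehicle, against 0.563% of all genes, and at 90 mpk Col3a1, Col4a1 and Col4a2 did, against 0.312%.

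Many genes that fold, modify and secrete collagen changed in the same directions. Procollagen is hydroxylated and folded in the endoplasmic reticulum, trimmed outside the cell and cross-linked by lysyl oxidases. For the lists below, 18.2% of all tested genes were higher and 13.5% lower in vehicle than in sham. Against vehicle 13.5% were higher and 17.9% lower at 30 mpk, and 7.12% higher and 11.1% lower at 90 mpk. Of 20 folding and secretion genes 15 were higher in vehicle than in sham (median log2 fold change 0.75), and 13 were lower and 1 higher at 30 mpk than in vehicle (median -0.43), with 11 lower and 1 higher at 90 mpk. The members with the smallest p in vehicle against sham were Serpinh1, the collagen chaperone, at 72.3 against 22.7 FPKM and 1.69 (SE 0.17, adjusted p = 8.24e-07), and the prolyl hydroxylase family genes P3h3, at 1.07 (SE 0.12, adjusted p = 2.56e-06), and P3h1, at 1.45 (SE 0.17, adjusted p = 3.4e-06). At 30 mpk Serpinh1 was -0.68 (SE 0.18, adjusted p = 0.00385) relative to vehicle. Of 14 processing and cross-linking genes 11 were higher in vehicle than in sham (median 1.45), 10 were lower at 30 mpk and 9 at 90 mpk than in vehicle.

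Lox, a lysyl oxidase, averaged 29.1 against 0.869 FPKM in vehicle and sham mice, 5.13 (SE 0.47, adjusted p = 3.95e-07) on the log2 scale, and was -2.78 (SE 0.44, adjusted p = 2.45e-05) at 30 mpk relative to vehicle. Loxl2 and Loxl1 were higher in vehicle by 2.19 (SE 0.19, adjusted p = 1.07e-07) and 2.13 (SE 0.21, adjusted p = 5.94e-07). Of 10 collagen receptors 4 were higher and 1 lower in vehicle than in sham (median 0.19), and 5 were lower at 30 mpk and 3 at 90 mpk than in vehicle. They included Mrc2, which takes up collagen for breakdown, at 1.28 (SE 0.12, adjusted p = 1.55e-07), the integrin subunit Itgb1 at 0.49 (SE 0.07, adjusted p = 4.11e-05) and the leukocyte receptor Lair1 at 0.74 (SE 0.16, adjusted p = 0.0013).

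Markers of the cells that make collagen, and of other cells, were read beside these results. Each count can be set against the shares of all tested genes. These were 18.2% higher and 13.5% lower in vehicle against sham. Against vehicle they were 13.5% higher and 17.9% lower at 30 mpk, and 7.12% higher and 11.1% lower at 90 mpk. Of 12 fibroblast markers, none of them a collagen, 8 were higher in vehicle than in sham (median log2 fold change 0.94), and 3 were lower and 2 higher at 30 mpk than in vehicle (median -0.19), with 4 lower and 1 higher at 90 mpk (median -0.20). Their summed FPKM was 327 to 462 in sham, 366 to 680.2 in vehicle, 323 to 893 at 10 mpk, 433 to 593 at 30 mpk and 442 to 606 at 90 mpk. Of 8 smooth muscle markers 3 were higher and 1 lower in vehicle than in sham at an unadjusted p under 0.05 in edgeR, which did not pass the adjustment (median 0.24), and 4 were higher at 30 mpk and 3 at 90 mpk than in vehicle. Their sums were 1696 to 2598 FPKM in sham, 1132 to 3823 in vehicle, 2042 to 3627 at 10 mpk, 1797 to 4047 at 30 mpk and 2068 to 3957 at 90 mpk.

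Of 8 endothelial markers 6 were higher in vehicle than in sham, and 1 was lower at 30 mpk than in vehicle, with sums of 42.3 to 72.2 FPKM in sham, 73.7 to 125 in vehicle, 70.8 to 161 at 10 mpk, 63.6 to 105 at 30 mpk and 63.1 to 131 at 90 mpk. All 7 macrophage markers were higher in vehicle than in sham, 6 were lower at 30 mpk and 7 at 90 mpk than in vehicle, and their sums were 59.3 to 80.4, 123 to 272, 106 to 309, 97.5 to 149 and 96.9 to 171 FPKM in the same order. Mesothelium markers, of the outer lining of the gut, were higher in vehicle than in sham in 3 of 5 cases and lower than vehicle in 4 at 30 mpk and 5 at 90 mpk, with sums of 1.51 to 5.66, 2.95 to 15.1, 2.70 to 7.94, 1.15 to 5.18 and 0.87 to 3.99 FPKM. Of 5 tested pericyte markers 4 were higher in vehicle than in sham, and 3 were lower and 1 higher at 30 mpk than in vehicle. All 6 neutrophil markers were higher in vehicle than in sham (median log2 fold change 8.51) and lower at 30 and 90 mpk than in vehicle (medians -6.00 and -6.41). Of 4 tested squamous epithelium markers all were higher in vehicle, and 3 were lower at 30 mpk and 4 at 90 mpk. Colon epithelium markers were lower in vehicle in 2 of 8 cases and higher than vehicle at 30 mpk in 3. Of 7 markers of glia and neurons 1 was higher and 1 lower in vehicle than in sham, and 4 were higher and 1 lower at 30 and at 90 mpk than in vehicle. The 8 tested acinar markers were all called higher in vehicle than in sham, and 7 were called lower at 90 mpk than in vehicle. All 8 were also called higher than sham at 10, 30 and 90 mpk, where 21.3%, 30.3% and 23.4% of all genes were higher. The acinar sums were 0.06 to 6.34 FPKM (median 0.345) in sham and 0.03 to 43009 FPKM (median 2.13) in vehicle. Vehicle mouse 6 held the highest of these sums, so the acinar calls do not describe the vehicle group as a whole. No marker of these lists was at 0 in all mice. The part of each cell type in the collagen changes was not tested.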

How the data were processed

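Poly(A) RNA of 50 colon libraries was analysed, each read as 1 mouse; the labels number replicates 1 to 10 per group without stating separate animals, and if some share a mouse, p-values measure technical spread. The authors deposited read counts per gene and FPKM values in 1 table; per the submitters' processing notes, reads were handled with HISAT2 2.2.1, HTSeq 0.6.1, cutadapt 1.9.1 and DESeq2 on GRCm39; no strand setting is stated. The deposited FPKM followed from the deposited counts within 1% in 99.9966% of values at 500 counts or more.

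Counts were tested with edgeR 4.0.16 (R 4.3.3; TMM scaling, robust quasi-likelihood test, Benjamini-Hochberg adjustment over 17928 genes, threshold 0.05) after filterByExpr with a count minimum of 10. Fits against sham used the 20 mice of the pair, and the others used the 40 TNBS mice. Alternatives were DESeq2 1.42.0, library totals, quantile normalization and group weights (limma 3.58.1), no filter, a replicate block, rank sums, other sample sets and mice left out.

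Full values were given for the 3 most abundant chains of a class with a mean of at least 1 FPKM over all mice, the called chains with the largest rise and fall, and chains called against the majority of their class. Other chains were named with shorter values. In each pathway list up to 3 members with the smallest p in vehicle against sham were named. The chains, classes and lists were chosen with earlier results of these data known. Promoter windows came from RefSeq (GRCm38.p6). The tests were tried on simulated data. Whether the replicate numbers pair the mice was not settled, so the block is an alternative.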

Additional observations from a re-analysis of the deposited data

Results flagged for a closer look

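For 24 chains in each of the 5 groups, 120 groups of 10 mice in all, the highest and the lowest mouse were compared with the rest, and 20 values stood apart by Dixon's criterion at 95%. By chance about 1 in 20 groups would be flagged.

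Of the 20 values, 11 came from mouse 1 of the 10 mpk group, as the highest of its group, in chains of 4 classes. This mouse was also the highest of its group for Col4a1 (142 FPKM) and Col4a2 (82.1 FPKM), without passing the criterion. Among the fibrillar chains it had 285.77 FPKM for Col1a1, 180.23 FPKM for Col1a2, 461.77 FPKM for Col3a1, 48.87 FPKM for Col5a1 and 45.26 FPKM for Col5a2. Among the others it had 17.8 FPKM for Col16a1, 112.37 FPKM for Col6a1, 58.71 FPKM for Col6a2, 30.19 FPKM for Col6a3, 27.89 FPKM for Col15a1 and 33.51 FPKM for Col18a1.

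Mouse 10 of the 30 mpk group stood apart in 6 chains, as the highest of its group. It had 72.42 FPKM for Col1a2, 17.44 FPKM for Col5a1, 64.43 FPKM for Col6a1, 31.34 FPKM for Col6a2, 13.42 FPKM for Col6a3 and 2.57 FPKM for Col6a4.

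Mouse 5 of the 10 mpk group was the lowest of its group for Col4a5, at 1.42 FPKM, and for Col6a4, at 1.16 FPKM. Vehicle mouse 6, the mouse with the most pancreatic RNA, was the lowest of its group for Col16a1, at 5.2 FPKM.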

How the results depend on the processing

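No called chain changed sign under an alternative. In vehicle against sham, 30 and 90 mpk against vehicle and each dose against sham, counts of called chains stayed within 1.5 times of the reported ones under each alternative run. Those at 10 mpk against vehicle, 3 as reported, were 5 by DESeq2, 5 with all 50 mice in 1 fit, 1 after quantile normalization and 0 with group weights, by rank sums and with only the 2 groups; leaving out 1 mouse at a time gave 2 to 9. At 30 against 10 mpk, 16 as reported, no filter left 10 and leaving out 1 mouse gave 9 to 17. At 90 against 30 mpk, 1 as reported, no filter gave 0, leaving out the 2 mice low in Xist (chosen after seeing the data) gave 0, group weights, rank sums and only the 2 groups gave 2 each, and leaving out 1 mouse gave 0 to 1. The causes were not tested.

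Leaving out 1 mouse gave 25 to 29 called chains in vehicle against sham, 19 to 20 at 30 mpk and 18 to 22 at 90 mpk against vehicle, and 25 to 27, 21 to 24 and 21 to 24 at 10, 30 and 90 mpk against sham. With the replicate number as a block the counts were 23 in vehicle against sham, 2, 19 and 19 at 10, 30 and 90 mpk against vehicle, 26, 20 and 20 against sham, 15 at 30 against 10 mpk and 1 at 90 against 30 mpk. Same-numbered mice correlated between -0.28 and 0.50 over genes. Differently numbered mice were not correlated for comparison, so these values cannot decide whether the numbers pair the mice. Depth limits the 5 untested chains and those under 0.1 FPKM, where few reads carry each value.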
